A study of Mus musculus with 16 samples.

Results

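The high-affinity receptor for IgE is built from 3 chains, and its transcripts were followed here in mast cells and in the vesicles they release. The members were chosen by gene symbol: every probe set whose single annotated symbol was Fcer1a (α chain), Ms4a2 (β chain) or Fcer1g (γ chain). This gave 4 probe sets for 3 genes, of 45037 probe sets tested and of 34945 probe sets and 18193 genes with 1 symbol. Fcer1a was read by 1421775_at, Fcer1g by 1418340_at, and Ms4a2 both by 1443264_at, designed on an expressed sequence tag, and by 1421475_at, designed on its RefSeq transcript.

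RNA had been hybridized to 16 Affymetrix mouse arrays, 4 for each of 4 groups: exosomes from cells under normal conditions (norm exo), exosomes from cells exposed to 125 µM H2O2 for 24 h (oxi exo), and MC/9 cells of each condition (norm cell and oxi cell). MC/9 is a single mouse mast cell line, and all groups shared its medium with serum and a rat T cell supplement. Exosomes are small vesicles shed by cells, and here they were what passed a 0.22 µm filter and was pelleted at 120000 g for 70 min. The sample labels describe the cells as recipients of exosomes of each condition, whereas the study treats them as donor cells given vehicle or H2O2, and the groups follow the latter. Not every replicate is stated to be a separate culture, so that p-values measure the spread between these arrays only.

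The α chain holds the extracellular domains that bind IgE. The β chain crosses the membrane several times and amplifies the signal, and the γ chain forms a dimer that carries the signal into the cell and is shared with other Fc receptors. When antigen cross-links bound IgE, kinases phosphorylate the tails of β and γ, and the mast cell releases its granules. Expression of α and β together is a mark of mast cells and basophils, whereas γ is found in many myeloid cells.

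The promoters are shown because α and β were both called lower in exosomes of oxidative stress and all 3 chains in cells, and because mast cell genes are commonly bound by GATA factors. All 3 genes were found in the RefSeq promoter table and lie on the minus strand of GRCm38.p6, and the 250 bases before the start of each RefSeq gene are written from 5′ to 3′ along that strand, Fcer1a at chr1:173227230-173227479, Ms4a2 at chr19:11623720-11623969 and Fcer1g at chr1:171234350-171234599. Capitals mark GATAA or its reverse complement TTATC.
Fcer1a: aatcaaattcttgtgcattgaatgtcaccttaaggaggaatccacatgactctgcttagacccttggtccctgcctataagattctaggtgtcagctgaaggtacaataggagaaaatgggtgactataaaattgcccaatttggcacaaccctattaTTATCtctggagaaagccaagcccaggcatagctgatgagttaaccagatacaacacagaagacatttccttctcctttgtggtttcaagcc
Ms4a2: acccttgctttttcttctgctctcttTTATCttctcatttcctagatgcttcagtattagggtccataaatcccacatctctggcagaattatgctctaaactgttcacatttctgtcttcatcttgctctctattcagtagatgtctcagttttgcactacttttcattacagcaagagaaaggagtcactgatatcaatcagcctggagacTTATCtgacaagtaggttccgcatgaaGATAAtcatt
Fcer1g: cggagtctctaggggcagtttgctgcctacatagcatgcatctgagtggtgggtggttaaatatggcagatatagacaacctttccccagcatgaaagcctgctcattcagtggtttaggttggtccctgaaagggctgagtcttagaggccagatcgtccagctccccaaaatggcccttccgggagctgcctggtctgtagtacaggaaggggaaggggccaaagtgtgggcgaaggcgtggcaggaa
The α promoter held 1 match, whose first base was 92 bases before the start. The β promoter held 3 matches, at 224, 37 and 10 bases before the start, and the γ window held 0. Of all 32851 windows of this length in the RefSeq table, 22.58% held at least 1 match and 0.7123% held 3 or more. A match is a description of letters and not a binding site.

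The array measures differed between exosomes and cells. As background, the 95th percentile over 202 probe sets for 167 genes restricted to other tissues was taken on each array. It was 16.7 ± 1.53 (SD, n = 4) in norm cell, 12.6 ± 1.98 in oxi cell, 246.6 ± 27.5 in norm exo and 262.7 ± 31.2 in oxi exo. It was thus 14.8 and 20.8 times higher on exosome than on cell arrays, and the spiked hybridization controls were 17.3 and 20.8 times higher. The signal ratio of 3′ to 5′ probe sets of Gapdh was 1.64 and 1.89 in norm and oxi exo, against 0.832 and 0.851 in the cells, and that of actin was 5.35 and 3.86, against 1.43 and 1.38. Above background on all 4 arrays were 43.2% of probe sets in norm cell and 44.2% in oxi cell, against 4.19% in norm exo and 2.66% in oxi exo. The cell label was checked with 13 other mast cell genes, of which 9 were above background on all norm cell arrays and 10 on all oxi cell arrays. Their summed signal was 31856 to 34236 in norm cell and 23572 to 28000 in oxi cell.

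The α chain transcript was present in both kinds of RNA. In norm cell its signals, in units of a trimmed array mean of 100, were 10334, 10098, 11780 and 11458 (mean 10917 ± 826), and in oxi cell 7817, 8895, 9604 and 9308 (8906 ± 782). In norm exo they were 2005, 2122, 1153 and 1597 (1719 ± 439), and in oxi exo 709.8, 534.9, 375.8 and 278.8 (475 ± 189). All 16 values were above their array's background, and the 4 groups did not overlap. How many of all probe sets had groups without overlap was not counted, for this chain or for those below. The lowest oxi exo value, on replicate 4, lay close to the mean background of its group.

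The β chain transcript followed the same order of groups on the probe set 1443264_at. It gave 4791, 4689, 5100 and 4853 in norm cell (4858 ± 175) and 3737, 4322, 4430 and 3880 in oxi cell (4092 ± 336). It gave 1319, 977, 655 and 816 in norm exo (942 ± 284) and 193, 333, 277 and 174 in oxi exo (244 ± 74.2). The groups did not overlap, but only 1 of the 4 oxi exo values was above background, and the other groups were above it on all arrays.

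The second β probe set, 1421475_at, gave 2327, 2415, 2460 and 2304 in norm cell (2376 ± 73.5) and 1987, 1976, 1799 and 2171 in oxi cell (1983 ± 152). On the exosome arrays it gave 208, 181, 133 and 160 in norm exo (170 ± 31.9) and 34.7, 162, 166 and 86.5 in oxi exo (112 ± 63.3). It was not above background on any exosome array, and norm and oxi exo overlapped. The probe sets of β therefore disagreed in norm exo, where the first was above background on 4 of 4 arrays and the second on 0 of 4. The log2 ratio of the first to the second was 0.96 to 1.07 in norm cell and 0.84 to 1.30 in oxi cell, and was not measured in exosomes. The part of the higher 3′ to 5′ ratios of exosome arrays in this was not tested.

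The γ chain transcript was strong in cells and not above background in exosomes. Its signals were 3560, 3177, 3353 and 3276 in norm cell (3341 ± 162) and 2613, 2908, 2988 and 2711 in oxi cell (2805 ± 173). They were 160, 104, 248 and 202 in norm exo (179 ± 61.3) and 164, 104, 95.6 and 60.9 in oxi exo (106 ± 43.0). The cell groups did not overlap, whereas the exosome groups did, and all 8 exosome values were below background. The exosome arrays thus gave only an upper bound for γ.

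**Figure D1:**
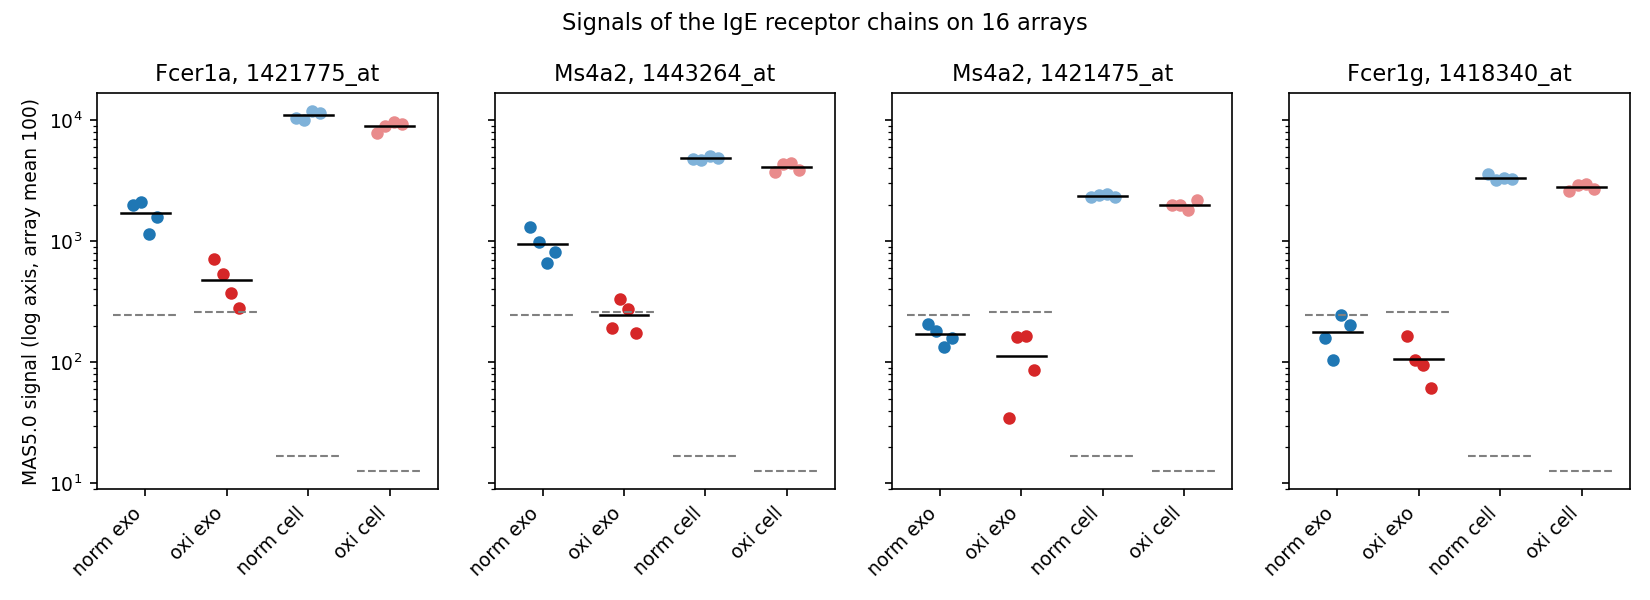
MAS5.0 signals of the 4 probe sets (log axis, trimmed array mean of 100) on each of the 16 arrays by group, with the group mean as a black line and the mean background of the group dashed in grey. Fcer1a is above the dashed line in all groups, 1443264_at of Ms4a2 straddles it in oxi exo, and 1421475_at and Fcer1g lie at or under it in both exosome groups.

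The oxi exo arrays were set against the norm exo arrays to ask how H2O2 exposure of the donor cells altered exosomal mRNA. Both the α chain and the β chain on 1443264_at fell. For α, oxi exo held 35.4, 25.2, 32.6 and 17.5% of the same-numbered norm exo signal (27.7 ± 8.05%), a log2 difference of -1.91 (SE 0.22, limma adjusted p = 0.000265), or 3.75-fold lower. For β on 1443264_at the shares were 14.6, 34.1, 42.3 and 21.3% (28.0 ± 12.4%), a log2 difference of -1.95 (SE 0.28, limma adjusted p = 0.000677), or 3.87-fold lower. Both were lower in 4 of 4 pairs, and 1.7% of all probe sets (764) were called lower in this comparison. That share is over probe sets of which only 1889 were above background on all norm exo arrays. With values below background set to it, the β difference was -1.66.

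The second β probe set and γ were not called in this comparison. Their log2 differences were -0.83 (SE 0.51, limma adjusted p = 0.644) and -0.77 (SE 0.46, limma adjusted p = 0.639), and lower in 3 of 4 pairs. Since both were below background in both groups, no fold is given. In these bulk preparations fewer vesicles carrying a transcript and less of it per vesicle cannot be told apart, and the same holds for cells.

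Cells of oxidative stress had slightly lower signals of all 3 chains than cells of normal conditions. The α chain was at 75.6 to 88.1% of its same-numbered norm cell signal (81.6 ± 5.09%), with a log2 difference of -0.30 (SE 0.05, limma adjusted p = 0.00487). The β chain was at 84.3 ± 6.52% on 1443264_at, with -0.25 (SE 0.06, limma adjusted p = 0.0148), and at 83.6 ± 8.73% on 1421475_at, with -0.26 (SE 0.06, limma adjusted p = 0.0201). The γ chain was at 84.2 ± 8.10%, with -0.25 (SE 0.06, limma adjusted p = 0.0212). All 4 probe sets were lower in 4 of 4 pairs and were called, against 5.51% of all probe sets called lower. The median of all probe sets was itself -0.147, and relative to it the 4 differences were -0.15, -0.10, -0.12 and -0.11 for α, 1443264_at, 1421475_at and γ. Scaled to the spiked controls, the 4 differences were 0.0015, 0.046, 0.033 and 0.043, none past the threshold, so that the direction in cells depended on the scaling. Quantile normalization took α to -0.17, no longer called. Calls were also lost without replicate 1 (1443264_at -0.21, γ -0.19), replicate 2 (1421475_at -0.26), replicate 3 (1421475_at -0.20) or replicate 4 (1443264_at -0.23, γ -0.25).

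The change in exosomes was tested against the change in cells. For α the difference between the changes was -1.61 on the log2 scale (SE 0.23, limma adjusted p = 0.00867), and for β on 1443264_at it was -1.70 (SE 0.31, limma adjusted p = 0.0200), lower in exosomes in 4 of 4 replicate numbers, and 1.47% of all probe sets were called lower in this test. The values were -1.88 and -1.97 with scaling to the spiked controls, and were called there too. Under quantile normalization they were -1.26 and -1.98 and not called (limma adjusted p = 0.12 and 0.053). The α call was also lost without replicate 1 (-1.78) and without replicate 2 (-1.55), and the β call without replicate 1 (-1.46), replicate 2 (-1.79) or replicate 4 (-1.63). For 1421475_at and γ the values were -0.56 (SE 0.52) and -0.51 (SE 0.40), with limma adjusted p = 0.693 and 0.634.

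**Figure D2:**
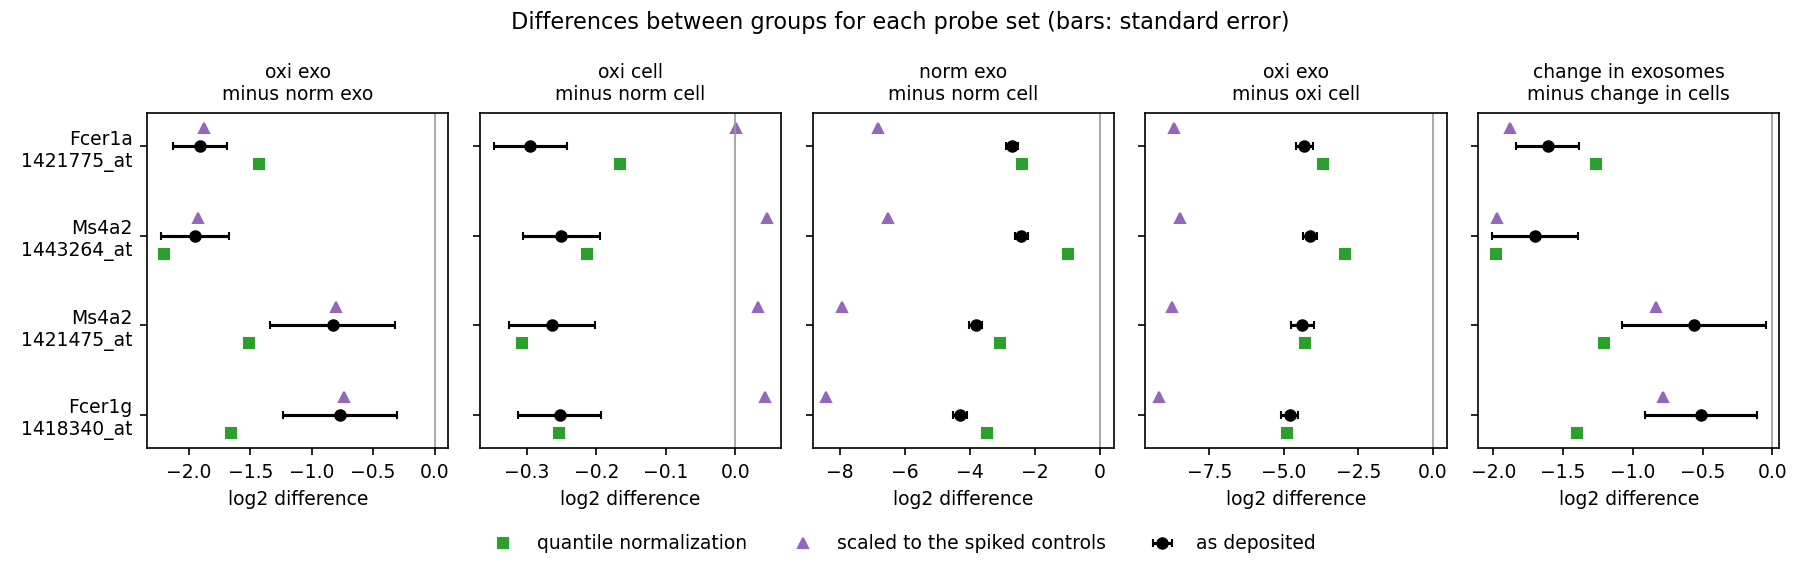
Log2 differences (x axes, each panel on its own scale) of the 4 probe sets in 5 comparisons: black circles with standard errors for signals as deposited, green squares after quantile normalization and purple triangles after scaling to the spiked controls. All differences lie left of 0 except those of oxi cell against norm cell scaled to the spiked controls, 0.0015 to 0.046.

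Exosomes were also compared with cells of the same condition, to see which cellular transcripts the vesicles held. All 3 chains were lower in exosomes, in 4 of 4 pairs on all 4 probe sets and in groups that did not overlap. Of all probe sets, 19.0% were called lower in norm exo and 19.4% in oxi exo. Those shares are over probe sets of which only 43.2% and 44.2% were above background on all norm cell and oxi cell arrays. How many of them had groups without overlap was not counted. For α the difference was -2.70 (SE 0.19, limma adjusted p = 5.09e-06), or 6.51-fold lower, in norm exo, and -4.31 (SE 0.28, limma adjusted p = 1.20e-05), or 19.9-fold lower, in oxi exo. For β on 1443264_at it was -2.41 (SE 0.19, limma adjusted p = 1.05e-05), or 5.33-fold lower, in norm exo, and -4.12 (SE 0.23, limma adjusted p = 7.86e-06), or 17.3-fold lower, in oxi exo, where it was -3.82 with values below background set to it.

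For the probe sets below background in exosomes only bounds were obtained, set by the background of each exosome array and given for the signals as deposited. Compared with norm cell, norm exo had an at least 13.6-fold lower signal of γ (limma adjusted p = 1.68e-06), and compared with oxi cell, oxi exo had an at least 10.7-fold lower one (limma adjusted p = 9.62e-06). The second β probe set was at least 9.68-fold lower (limma adjusted p = 1.68e-06) and at least 7.57-fold lower (limma adjusted p = 3.56e-05). These p-values are of the fits without a floor and do not test the bounds. On the log2 scale the bounds were -3.77 (γ) and -3.28 (1421475_at) in norm exo, and quantile normalization gave smaller differences of -3.48 and -3.07. In oxi exo the bounds were -3.42 and -2.92, and quantile normalization gave larger differences of -4.88 and -4.28. The median of all probe sets was 2.23 higher on norm exo than on norm cell arrays and 2.67 higher on oxi exo than on oxi cell arrays, against 0.16 and 0.20 after quantile normalization and -1.88 and -1.71 once arrays were put on the spiked controls. Relative to the shift as deposited, the α differences were -4.93 and -6.98. Both α and β on 1443264_at were lower in exosomes under each of these scalings, with log2 differences from -8.69 to -0.98.

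The chains were set beside all probe sets with a mean signal of at least 2000 in cells, without an upper limit. Of the 684 probe sets with a mean signal of at least 2000 in norm cell, 513 (75%) were above background on all norm exo arrays, and α and β on 1443264_at were among them, whereas γ and 1421475_at were not. Of the 709 such probe sets in oxi cell, 317 (44.7%) were above background on all oxi exo arrays. The α chain was among these, whereas β on 1443264_at and γ were not. The probe set 1421475_at, with a mean of 1983 in oxi cell, did not belong to the 709.

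Ratios between chains on the same array do not depend on the scaling of that array. In 12 exact two-sided permutation tests of 4 against 4 arrays, for which the smallest possible p is 0.0286, no adjusted p passed 0.05. The log2 ratio of α to β was 1.17 ± 0.07 in norm cell, 1.12 ± 0.10 in oxi cell, 0.88 ± 0.22 in norm exo and 0.92 ± 0.65 in oxi exo. The groups overlapped throughout. It differed by 0.05 between oxi and norm exo (exact permutation p = 0.943), with differences between single arrays from -0.68 to 1.28, and replicate 1 of oxi exo alone was above all norm exo arrays. Without replicate 1 the difference was -0.36. Between oxi and norm cell it differed by -0.04 (exact permutation p = 0.486, array differences -0.20 to 0.16). A difference between α and β in how far they fell was thus not detected, within array differences of this width and with β above background on only 1 of 4 oxi exo arrays.

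The ratios to γ could be given in exosomes only as lower limits, since γ was below background on all 8 exosome arrays. With γ and any other low value set at background, the log2 ratio of α to γ was at least 1.06 higher in norm exo than in norm cell, and that of β to γ at least 1.35 higher. Neither passed the threshold (adjusted p = 0.0686 for each by the same exact permutation tests). In oxi exo against oxi cell the limit for α to γ was -0.89, which left the direction undetermined. In cells, where all chains were above background, the ratios to γ differed by -0.04 for α and 0.0027 for β between oxi and norm.

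**Figure D3:**
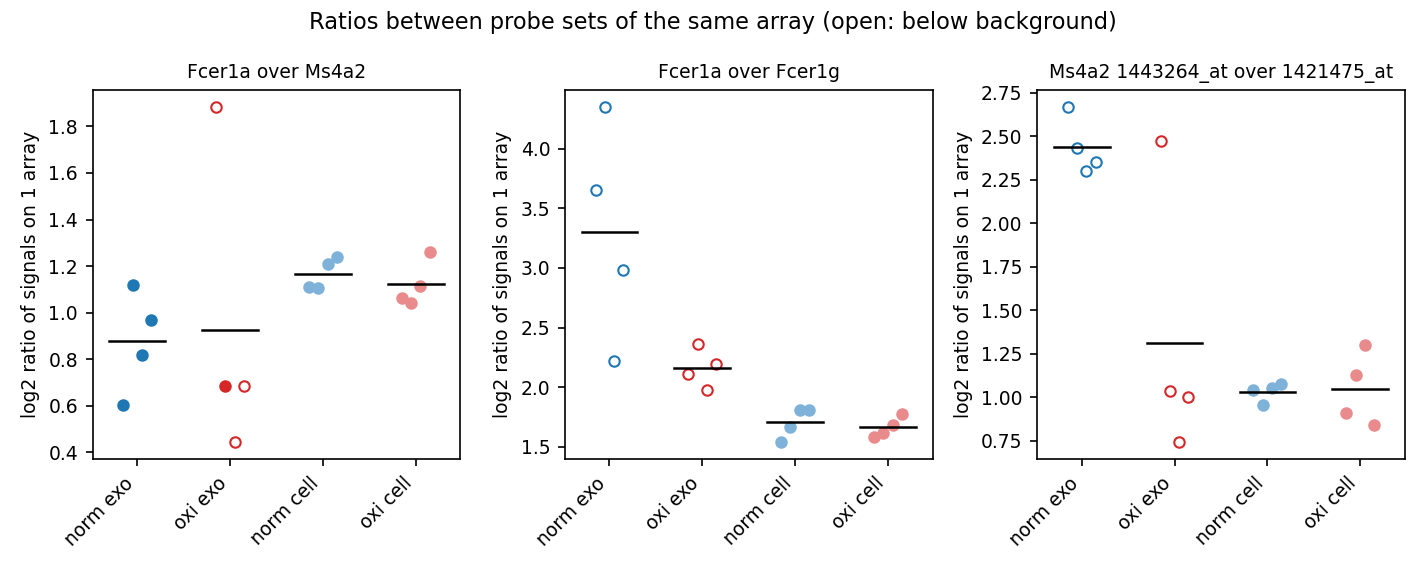
Log2 ratios of signals on the same array (y axes) by group for Fcer1a over Ms4a2 (1443264_at), Fcer1a over Fcer1g, and the first over the second Ms4a2 probe set, with each array as a point and the group mean as a line. Open points are arrays on which at least 1 of the probe sets was below background, so that the ratio is not a measured one. All exosome points of the ratios to Fcer1g and to the second Ms4a2 probe set are open, and the ratio of Fcer1a to Ms4a2 overlaps between all groups.

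The proteins that act directly below the receptor were read from 37 genes, matched of a list of 46, with 1 probe set each. Of them 33 were above background on all arrays in each cell group, 4 in norm exo and 2 in oxi exo. In oxi against norm exo 2 genes fell and 0 rose, where 1.7% of all probe sets were called lower and 0.0311% higher, with a median log2 difference of 0.04 against 0.06 over all probe sets. Those that fell were Lat, the membrane adaptor that gathers the signalling complex, and Ptpn11, the phosphatase SHP-2, which was named after its value was seen. Lat had 1427 ± 36.7 in norm cell, 1575 ± 23.8 in oxi cell, 1048 ± 115 in norm exo and 527 ± 117 in oxi exo. It fell by 1.01 on the log2 scale from norm to oxi exo (SE 0.21, limma adjusted p = 0.0147), and its difference between norm exo and norm cell was -0.45 (SE 0.17, limma adjusted p = 0.0293).

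Ptpn11 had 625 ± 135 in norm exo and 244 ± 28.7 in oxi exo, the latter above background on 2 of 4 arrays, and a log2 difference of -1.34 (SE 0.26, limma adjusted p = 0.00927). Neither Lat nor Ptpn11 passed the threshold in oxi against norm cell, where their differences were 0.14 and 0.10. Both exosome calls were lost without replicate 1 or replicate 2, when 0 of the 37 genes were called lower. The remaining genes of highest signal in norm cell were Lcp2 (the adaptor SLP-76), Inpp5d (the lipid phosphatase SHIP-1), Gab2 (a scaffold for phosphoinositide 3-kinase), Prkcb and Prkcd (protein kinases C). In norm exo they were above background on 0 to 3 arrays and in oxi exo on 0, and their norm exo means were 137.1 to 271 against 808.3 to 1359 in norm cell.

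In cells the signalling genes moved in both directions, with 5 lower and 5 higher in oxi than in norm, against 5.51% and 4.31% of all probe sets. The lower ones were Lat2, Pik3cd, Prkcd, Cblb and Pag1 and the higher ones Fyn, Grb2, Plcg2, Akt1 and Prkcb, named as all that were called. The fall of Pik3cd depended on the probe set. The one in use went from a norm cell mean of 105.6 to an oxi cell mean of 74.2. Another Pik3cd probe set, brighter in cells, rose from a norm cell mean of 469.3 to an oxi cell mean of 543.8. Prkcd fell by 0.47 on the log2 scale (SE 0.06, limma adjusted p = 0.000753), and Plcg2, the phospholipase that releases calcium, rose by 0.30 (SE 0.06, limma adjusted p = 0.0115). With scaling to the spiked controls 0 were lower and 15 higher, and without replicate 1 the counts were 1 and 1, without replicate 2 they were 3 and 0, and without replicate 4 they were 3 and 1. Against cells of the same condition, 22 genes were lower and 8 higher in both norm and oxi exo. Of all probe sets, 19.0% and 19.4% were called lower and 57.7% and 60.8% higher, shares that include the many probe sets not above background in cells. The median differences were -1.12 and -1.25, beside 2.23 and 2.67 over all probe sets. Of the genes called higher, only Pik3cd was above background on all arrays of each exosome group. The remaining higher calls are therefore not measured rises. The Pik3cd probe set brighter in cells was lower in exosomes, with means of 155.7 in norm exo and 97.25 in oxi exo.

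Among receptors related to the chains by sequence, partner or adaptor, 24 genes were matched of 27 names. Tyrobp, which encodes DAP12, an adaptor that like γ carries an activating motif, was the 1 gene of the 24 called in oxi against norm exo, where 1.7% of all probe sets were called lower and 0.0311% higher. Its signals were 3668 ± 207 in norm cell, 2091 ± 220 in oxi cell, 1209 ± 163 in norm exo and 469 ± 140 in oxi exo, above background on all 16 arrays. It fell by 1.41 on the log2 scale in exosomes (SE 0.22, limma adjusted p = 0.00124) and by 0.82 in cells (SE 0.07, limma adjusted p = 8.62e-05). In cells 6 of the 24 genes fell and 0 rose, beside 5.51% and 4.31% of all probe sets, with a median of -0.20 against -0.15 over all probe sets.

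Fcgr3, an IgG receptor that uses the same γ chain, had 1548 ± 38.7 in norm cell and 1408 ± 64.2 in oxi cell. It had 196 ± 80.1 in norm exo and 89.0 ± 60.0 in oxi exo, above background on 1 and 0 arrays. Its difference between oxi and norm cell was -0.14 (SE 0.05, limma adjusted p = 0.138), and between norm exo and norm cell -3.09 (SE 0.26, limma adjusted p = 1.57e-05). The other genes of highest signal in norm cell were the inhibitory receptors Cd300a, Cd200r1 and Pirb and the adaptor Hcst. Cd300a, Hcst and Pirb fell in oxi cell, with log2 differences of -0.53, -0.66 and -0.60, whereas that of Cd200r1 was -0.05 (limma adjusted p = 0.764). None of the 4 passed the threshold in oxi against norm exo. Against cells of the same condition 5 genes of the list were lower and 16 higher in norm exo, beside 19.0% and 57.7% of all probe sets, and 4 and 16 in oxi exo, beside 19.4% and 60.8%, with medians of 2.72 and 3.97 beside 2.23 and 2.67 over all probe sets. Only 2 of the 24 genes were above background on all arrays of each exosome group, Fcgr2b (called higher) and Tyrobp (called lower). On no array above it were 18 in norm exo and 17 in oxi exo. The exosome background was 14.8 and 20.8 times that of cells, so that higher calls below it are not measured rises.

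**Figure D4:**
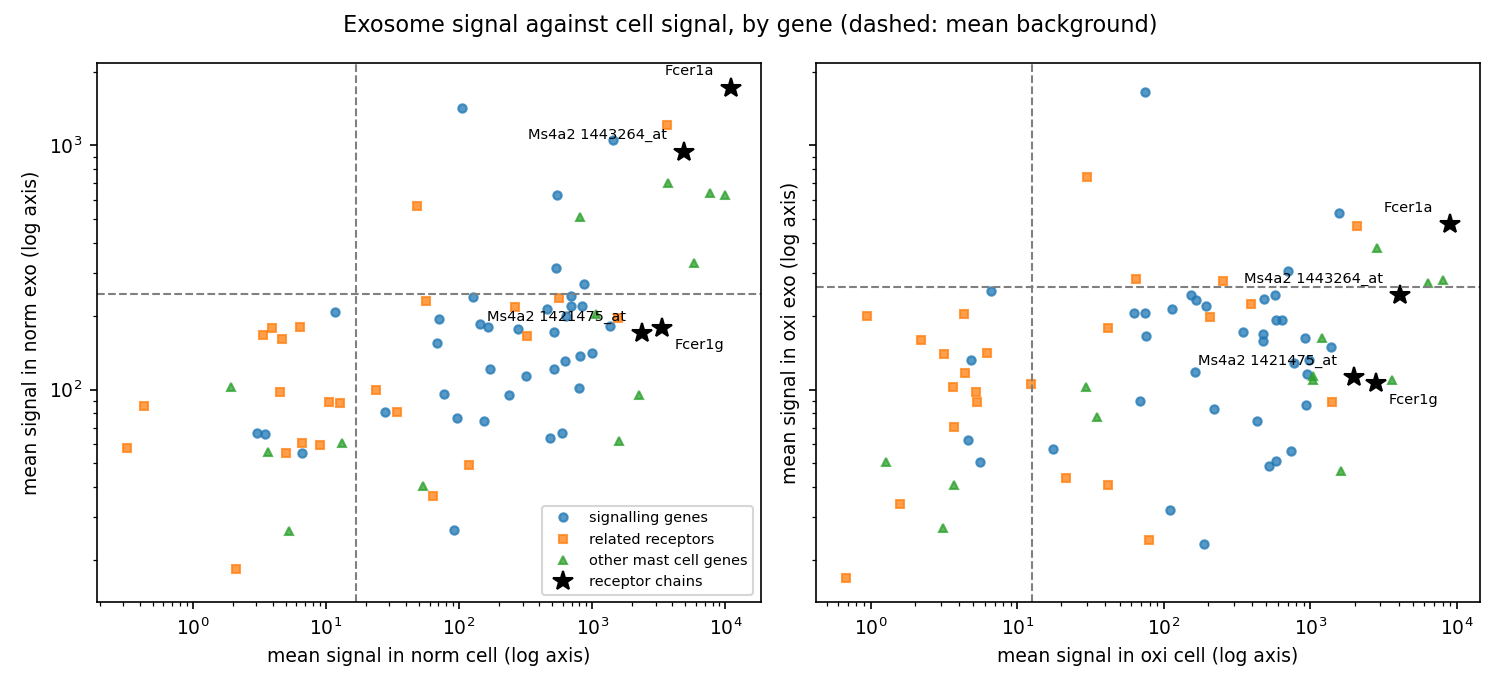
Mean signal in exosomes (y axes, log) against mean signal in cells (x axes, log) for normal conditions (left) and oxidative stress (right), for the receptor chains (black stars), signalling genes, related receptors and other mast cell genes, with the mean backgrounds dashed. Most genes detected in cells lie at or under the exosome background, and Fcer1a lies above it in both panels.

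Among 13 other mast cell genes 3 also fell in oxi against norm exo and 0 rose, beside 1.7% and 0.0311% of all probe sets, with a median log2 difference of -0.85 against 0.06 over all probe sets. Of the 13, 4 were above background on all norm exo arrays (Cpa3, Srgn, Gata2 and Hdc) and 1 on all oxi exo arrays (Gata2), and their summed signal was 2793 to 4247 and 1604 to 2105. Cpa3 (mast cell carboxypeptidase), Hdc (histidine decarboxylase, which makes histamine) and Srgn (the proteoglycan of the granule) were called lower in oxi than in norm exo, with log2 differences of -1.15, -1.76 and -1.25 and limma adjusted p = 0.0201, 0.00371 and 0.0149. They were named as the 3 called. Kit, the receptor for stem cell factor, had 1595 ± 15.9 in norm cell and was above background on 0 of the 8 exosome arrays. In oxi against norm cell 6 of the 13 genes fell (Cpa3, Tpsb2, Cma1, Gata2, Srgn and Mcpt2, with log2 differences from -1.11 to -0.27) and 2 rose (Hdc by 0.58 and Tpsab1 by 1.17), beside 5.51% and 4.31% of all probe sets. These are for the signals as deposited, where the median of all probe sets was -0.147, against 0.149 with scaling to the spiked controls. The smaller falls thus depended on the scaling, as for the chains.

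Markers of other cells that carry these chains were also read. In norm exo and oxi exo, 0 of 4 basophil, 0 of 8 macrophage and dendritic cell and 0 of 3 eosinophil markers were above background on all arrays. Among the cells the macrophage and dendritic list had, for norm and oxi, 2 and 3 of 8 above it, with a summed signal of 140 to 149 and 142 to 167, and the basophil list 1 of 4, with 680 to 768 and 613 to 690. The eosinophil list had 0 of 3 in both. The platelet and megakaryocyte list had 3 of 4 in both cell groups and 1 of 4 in both exosome groups, with a summed signal of 2182 to 2396 in norm cell, 1581 to 1841 in oxi cell, 949 to 1571 in norm exo and 498 to 764 in oxi exo. The basophil gene above background in cells was Cd200r3, with a norm cell mean of 697, beside 1.93 for Mcpt8, 8.14 for Il3ra and 9.41 for Itga2. Most of the platelet and megakaryocyte signal in cells was Itga2b. Norm cell means were 2208 for Itga2b, 46.9 for Pf4, 50.9 for Gp9 and 5.67 for Ppbp. In exosomes, too, the gene of that list above background was Itga2b. The part of transcripts of other cells in the chain values was not tested.

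The genes most like each chain over the 16 arrays, by Pearson's r of log2 signals among 9837 probe sets of higher signal, are given as a description, since all points share the gap between exosome and cell arrays. For Fcer1a they were Fau (r = 0.997), Rps10, Ccnd2, Vim and Rpl35, of which Fau, Rps10 and Rpl35 encode ribosomal proteins. For Ms4a2 they were Gsn (r = 0.997), H2-D1, Ddc, Aldoa and P4hb. For Fcer1g they were the mitochondrial ND5 (r = 0.997), Rbbp4, Igfbp5, Gabarapl1 and Cd47. Over the 8 exosome arrays alone they were Vim (r = 0.992), Rpl35 and Rps29 for Fcer1a, and Anapc5 (r = 0.998), Lasp1 and Sptssa for Ms4a2. These arrays share the gap between norm and oxi exo. Ms4a2 was above background on only 1 of 4 oxi exo arrays. Sptssa had means of 140.5 in norm exo and 56.9 in oxi exo, under the mean backgrounds of 246.6 and 262.7. For Fcer1g, below background on all 8 exosome arrays, they were Pik3cd (r = 0.963), Foxk1 and ND5. Pik3cd was read here by its probe set brighter in cells, not by the one of the signalling list. Mean signals of Rps29 were 9805 in norm cell, 8410 in oxi cell, 7974 in norm exo and 2441 in oxi exo, and those of Anapc5 were 1073, 1244, 2500 and 921.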

How the data were processed

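Total RNA of exosomes and MC/9 cells was measured on 16 arrays. The authors deposited 1 linear intensity per probe set and array, made with MAS5.0 (GCOS 1.2 in the submitters' processing notes) and scaled to a mean of 100 after trimming 2% at each end. Such scaling sets the mean of each array equal, so that a difference between exosomes and cells is relative to that mean. Present and absent calls were not used here. Of 45101 probe sets 64 controls were left out and 45037 tested; 34945 carried 1 symbol, 932 several and 9160 none.

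The log2 of the deposited intensities was tested in R 4.3.3 by limma 3.58.1 (linear model with a variance trend), for each comparison on its own groups with the replicate number as a block, after the paired test of the study's methods. The change in exosomes against that in cells was fitted on the 8 differences within numbers. Adjusted p are Benjamini-Hochberg over all probe sets, threshold 0.05. Genes named are the chains, the 6 list genes of highest norm cell signal, and the most similar genes (5 over 16 arrays, 3 over 8), plus those said to be all that were called. List genes were read by the probe set of highest mean signal. The members and lists were chosen with earlier results of these data known. The number of arrays limits the precision. The fits were tested on simulated data. Tables and figures were made in Python 3.11.15 with pandas 2.3.3, numpy 2.4.6, matplotlib 3.10.9 and scipy 1.17.1. Promoters were taken from the RefSeq table for GRCm38.p6. Alternatives were no block, quantile normalization, scaling to 9 spiked controls, probe sets above the median signal, a floor at background, log2(signal + 100), the methods' t-test, and each replicate number left out.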

Additional observations from a re-analysis of the deposited data

Results flagged for a closer look

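The change of Fcer1a with oxidative stress differed between exosomes and cells by -1.61 on the log2 scale, and that of Ms4a2 on 1443264_at by -1.70, both drawn out because the difference between the changes passed the threshold of its own test. The calls behind both were lost under quantile normalization and without replicate 1 or replicate 2, as given above. By Dixon's test no array stood apart from the other 3 of its group in any of 16 groups of values.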

How the results depend on the processing

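For the 4 probe sets over the 5 comparisons, 199 alternative values kept their direction and their side of the threshold, 28 lost the call and 11 changed direction. None of them changed a call of these probe sets in exosomes against cells. The falls of α and β on 1443264_at in oxi against norm exo were lost only under the methods' t-test after adjustment, at -1.86 and -1.95 on linear and -1.91 and -1.95 on log2 signals, and that test called 0 probe sets there (3680 and 3425 at an unadjusted p under 0.05, against 4389 in limma). Leaving out replicate numbers gave -2.04 to -1.70 and -2.19 to -1.68.

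In oxi against norm cell the methods' t-test lost all 4 calls, at -0.29, -0.25, -0.26 and -0.25 for α, 1443264_at, 1421475_at and γ on linear and -0.30, -0.25, -0.26 and -0.25 on log2 signals. Scaling to the spiked controls gave 0.0015, 0.046, 0.033 and 0.043, and quantile normalization took α to -0.17, which was no longer called. Leaving out numbers gave -0.29 to -0.21 for 1443264_at (lost without 1 or 4), -0.32 to -0.20 for 1421475_at (without 2 or 3) and -0.30 to -0.19 for γ (without 1 or 4).

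For the change in exosomes against that in cells, quantile normalization gave -1.26 for α and -1.98 for 1443264_at, and the t-test on log2 signals -1.61 and -1.70, all no longer called. On linear signals, where a fall from a high level counts for more, the differences were 767 (α), 68.2 (1443264_at), 335 (1421475_at) and 464 (γ) signal units. With the floor at background, 1421475_at and γ were at the floor on all exosome arrays and gave 0.35 and 0.34 (limma adjusted p = 0.00712 and 0.00797), which then is the rise of the floor and the fall in cells; in oxi against norm exo they gave no value. Leaving out numbers gave -1.78 to -1.41 for α, -1.92 to -1.46 for 1443264_at and -1.01 to 0.033 for 1421475_at.

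The replicate block was kept because the study's methods name a paired test, although same-numbered arrays correlated above 0.1 in their deviations in only 2 of 4 numbers in exosomes and 0 of 4 in cells. In exosomes these were number 2 (r = 0.48, against 0.44 for the best other number) and number 4 (r = 0.24 against 0.57). Between exosomes and cells the same-number r was -0.18 to 0.07. A pair is therefore a match of numbers only. Without the block no call of the 4 probe sets changed (limma adjusted p = 0.00113 for α and 0.00095 for 1443264_at in exosomes), and a replicate block over the 8 differences gave limma adjusted p = 0.0162 and 0.0213.

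The ratio of α to β in oxi against norm exo turned to -0.10 with log2(signal + 100), -0.25 with the floor and -0.36 without replicate 1 (range -0.36 to 0.21). That of α to γ in oxi exo against oxi cell, where γ was below background, turned to -0.19 and -0.89 with log2(signal + 100) and the floor, and that of β to γ to -0.40 with the floor. In cells the ratio of β to γ was -0.026 to 0.020 with numbers left out.

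Counts of signalling genes moved most. Lower in oxi exo were 0 under quantile normalization, 1 with spiked scaling and 0 to 2 with numbers left out, and higher 1 under quantile normalization and 6 with the floor. Lower in oxi cell were 3 under quantile normalization, 0 with spiked scaling, 3 with log2(signal + 100) and 1 to 4 with numbers left out, and higher 2, 15 with spiked scaling and 0 to 5 with numbers left out. Higher in norm exo than in norm cell were 5 under quantile normalization, 0 with spiked scaling, 5 above the median signal, 13 with the floor and 5 with the probe set of highest norm cell signal, an alternative chosen after seeing the data. In oxi exo against oxi cell these were 3, 0, 5, 15 and 5.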
